A study of Leptinotarsa decemlineata with 61 samples.

Results

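The midgut of the Colorado potato beetle (Leptinotarsa decemlineata) was compared between the last larval instar (L4) and the adult. The libraries were chosen by the names in their titles, and 9 of the 61 RNA-seq libraries of the series qualified: 3 from L4 larvae (replicates 3, 4 and 5), 3 from adult females (replicates 2, 3 and 4) and 3 from adult males (replicates 2, 4 and 5). Each library comes from 1 insect, and the sex of the L4 larvae is not given. All insects were untreated wild-type animals of the E06 strain, a laboratory line that goes back to beetles collected in Spain, and both stages were fed potato leaves. L4 larvae were dissected on day 19 after egg laying and adults 7 days after emergence. The tissue field of the labels names other sample types for these libraries, and the titles were used because they carry the library names.

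The midgut is the part of the insect gut where food is digested and absorbed. Its lining consists mainly of columnar cells, which secrete digestive enzymes and take up nutrients, and of stem cells that renew them. In leaf-feeding beetles the midgut is known for peptidases, for enzymes that degrade the plant cell wall, and for enzymes that deal with plant defence compounds. At metamorphosis the larval midgut lining is broken down and replaced by a new adult one, and in this species both stages eat the same plant. The comparison therefore addresses which genes differ between a larval and an adult midgut on the same food.

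The deposited values are TPM, read pairs per gene length scaled to the same total in each library. The 9 libraries held 13143253 to 16085250 read pairs on the genes of the table, and the L4 and adult ranges overlapped. At the median gene length of 1209 bp, 1 read pair corresponded to 0.0503 to 0.0725 TPM, so that values under that level could not be resolved. Gene identifiers are those of the study's own annotation. The sources used here do not pair them with gene names, and 0 of 15578 matched the reference table of the species, which is of another assembly. Genes are therefore given by identifier and position for the 4 leading ones, and as classes, counts and regions otherwise. Positions are those of the deposited table; no source used here names the build.

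L4 midgut spread its transcripts over more genes than adult midgut did. The number of genes above 1 TPM was 9591, 9309 and 9668 in the L4 libraries, against 8124, 8082 and 7895 in females and 8860, 8430 and 8559 in males, and the stages did not overlap. The means were 9523 ± 189 (SD, n = 3) and 8325 ± 357 (SD, n = 6), a difference of 1198 genes (two-sided exact permutation test over 84 splits, p = 0.0119, the smallest these splits allow; adjusted p = 0.0159 over 4 library measures). On the rescaled values introduced below the difference was 295 genes (exact p = 0.0238). The number of genes that together made up the first 50% of all TPM was 118, 70 and 129 in L4, and between 30 and 68 in adults.

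The 10 most abundant genes of a library took 20.2, 25.0 and 19.1% of its TPM in L4, and 30.2, 32.8 and 31.3% in females and 23.2, 26.7 and 26.8% in males. L4 replicate 4 lay above male replicate 2, so that the stages overlapped in these libraries. The means were 21.5% ± 3.14 (SD, n = 3) and 28.5% ± 3.57 (SD, n = 6; exact permutation p = 0.0357, adjusted 0.0357). The call was lost when any of 7 of the 9 libraries was left out.

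The lists of the most abundant genes differed. Ranked by mean TPM, 2 genes stood among the first 10 of both stages. The adult list took 22.3 to 31.9% of TPM in adults, and 4.21, 9.73 and 4.73% in the L4 libraries. Of its 10 genes, 8 were lower in L4 by the test described below, a direction that the choice of the list by adult level favours. The L4 list took 18.8 to 24.6% in L4 and 6.83 to 11.4% in adults, and 3 of its 10 genes were higher in L4 by the same test, where the choice by L4 level acts likewise.

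Genes were then classed by their level in the 8 other dissected tissues, without any midgut library. Aedeagus, genital ducts, malpighian tubules, ovaries and testes were sampled in adults only, and hemolymph in L4 only. The medians of hindgut and fat body pool both stages, with more adult than L4 libraries. The classes are thus not neutral to stage, which enters the shares given below. Broadly expressed genes, with a median above 1 TPM in each of these tissues, took 51.3, 43.8 and 53.1% of TPM in L4, 30.3, 27.8 and 29.1% in females and 38.4, 31.4 and 33.6% in males. The stages did not overlap, and the means were 49.4% ± 4.93 (SD, n = 3) and 31.8% ± 3.82 (SD, n = 6; exact permutation p = 0.0119, adjusted 0.0159).

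Gut-restricted genes, with a median of at most 1 TPM in each of the other tissues, took 4.97, 5.68 and 4.60% of TPM in L4 and 0.408 to 1.20% in adults (means 5.08% ± 0.551, SD, n = 3, and 0.648% ± 0.284, SD, n = 6; exact permutation p = 0.0119, adjusted 0.0159). Hindgut is among these tissues and no midgut level is required, so the name stands for this rule and not for shown gut specificity. Since most libraries behind the medians are adult, the rule can keep genes active in other L4 tissues and drop genes active in adult ones. This favours a higher L4 share, also in the test. Of the 1717 genes of the class, 310 were above 1 TPM in at least 2 midgut libraries. Most of the L4 share came from LdNA_25084, a gene described below, which alone took 2.99 to 4.45%. Without it, an omission chosen after the data were seen, the L4 libraries held 1.23 to 1.78% and the adults 0.408 to 1.20%, which still did not overlap (difference 0.889, exact permutation p = 0.0119).

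The gut-restricted class leaves out abundant midgut genes that show more than 1 TPM elsewhere. A wider class was therefore formed after the data were seen, from genes whose higher stage mean in midgut was at least 10 TPM and at least 10 times the highest median of another tissue. These 445 midgut-enriched genes took 42.0, 49.3 and 39.6% of TPM in L4 and 56.3 to 68.6% in adults. The direction was thus opposite to that of the gut-restricted class. The means were 43.6% ± 5.09 (SD, n = 3) and 64.0% ± 4.47 (SD, n = 6), given without a test because midgut levels chose the class.

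**Figure D1:**
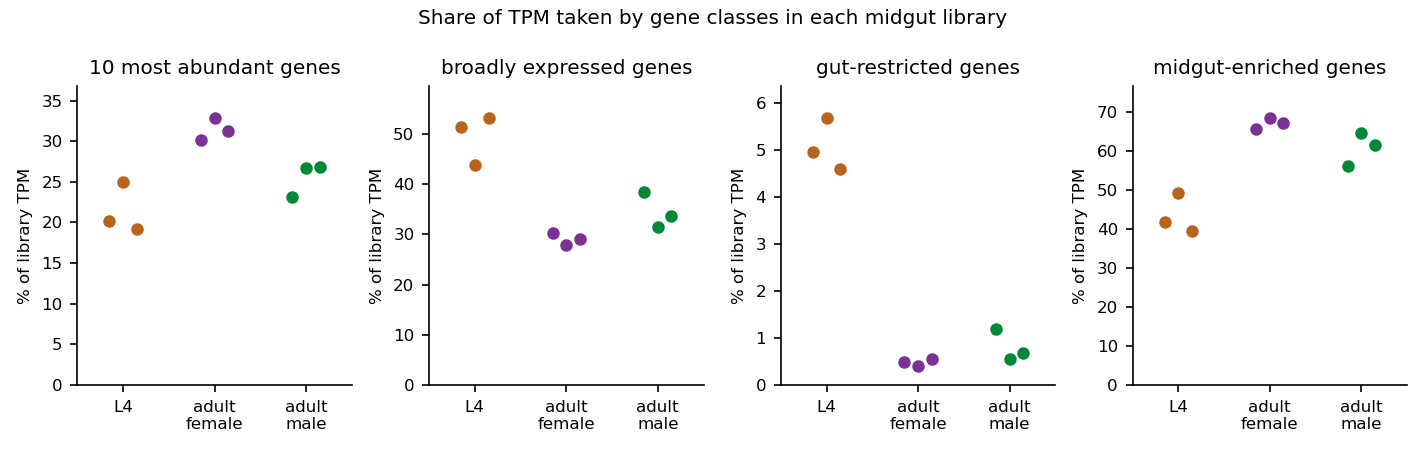
Share of the TPM of each midgut library (y axis, percent, starting at 0) taken by 4 gene classes, in L4, adult females and adult males. Each point is 1 library. Broadly expressed and gut-restricted genes take more in all 3 L4 libraries, and midgut-enriched genes take less.

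This difference in make-up bears on each single gene, because TPM is a share of a fixed total. Stage differences were tested with limma on log2(TPM + 1) for the 10056 genes above 1 TPM in at least 2 of the 9 libraries, as L4 minus the mean of females and males. On TPM as deposited, 6199 genes were higher in L4 (61.6%) and 782 lower (7.78%) at a Benjamini-Hochberg adjusted p under 0.05. The median difference of all genes was 0.82 on the log2 scale. After median-of-ratios rescaling, which sets the typical gene equal in all 9 libraries, 2723 genes were higher (27.1%) and 2531 lower (25.2%), with a median of 0.06. The rescaling factors were 1.37 to 1.75 for L4 and 0.686 to 1.04 for adults.

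The share of calls that were higher in L4 was 88.8% on TPM and 51.8% after rescaling. Which scale is nearer to RNA per cell cannot be told from these libraries, and fewer cells of a type and less RNA per cell cannot be told apart in whole tissue. A direction is therefore given only to genes called the same way on both scales, of which 2723 were higher in L4 (27.1%) and 780 lower (7.76%). These are 77.7 and 22.3% of the calls. The condition on TPM removed none of the 2723 genes higher after rescaling, so for L4-higher genes the call is that of the rescaled fit. A gene counted as lower had to fall below the adult level by enough to outweigh the general shift on TPM, so that the numbers of both directions are not comparable. Read pairs recovered from the TPM values gave 5290 higher and 969 lower with limma-voom.

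**Figure D2:**
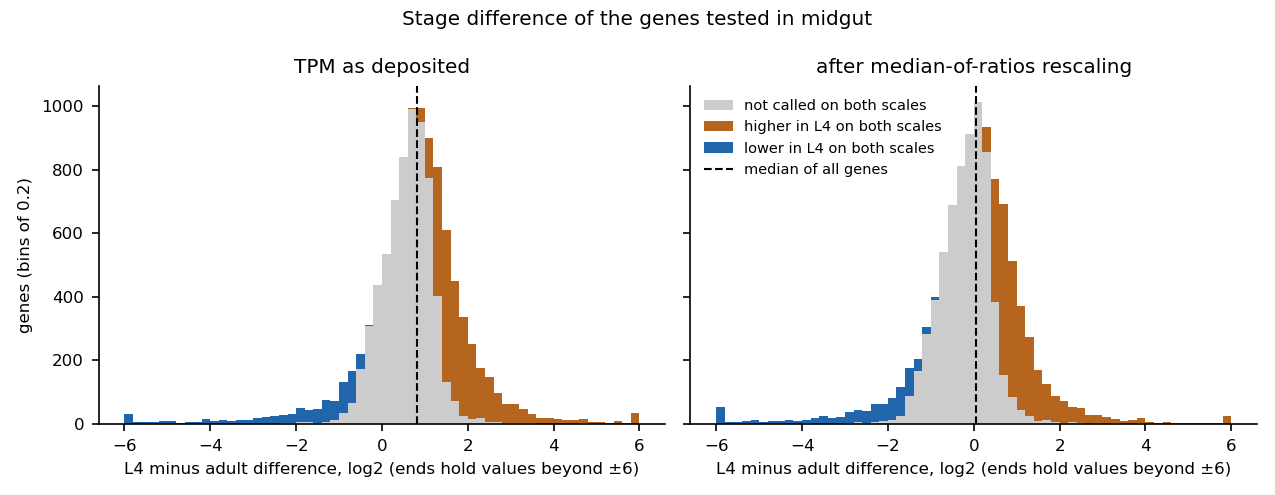
Distribution of the L4 minus adult difference over the 10056 genes tested (x axis, log2; y axis, genes in bins of 0.2), on TPM as deposited and after rescaling. Colours mark genes called on both scales, and the dashed line the median of all genes, which lies at 0.82 on TPM and at 0.06 after rescaling.

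The sizes of the differences are given after rescaling for the genes called on both scales. Of these, 1290 of the genes higher in L4 differed by at least 1 on the log2 scale, 354 by at least 2, 132 by at least 3, 35 by at least 5 and 5 by at least 8. Among the genes lower in L4 the numbers were 772, 459, 236, 92 and 22. The call on both scales leaves out small rescaled decreases, so that these numbers do not compare the directions. In 2386 of all genes (23.7%) every L4 library lay above every adult on both scales, and in 596 (5.93%) every one lay below.

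The calls were also counted by mean TPM over the midgut libraries, in which the 6 adults weigh more than the 3 L4 libraries. Of the 174 genes with a mean above 1000 TPM, 16 were higher in L4 and 59 lower on both scales, that is 9.20 and 33.9%. Among those above 1000 TPM the 78 broadly expressed genes held 5 higher and 4 lower, and the 3 gut-restricted genes 2 higher and 0 lower, so that most of the lower ones were in neither class. Of the 5198 genes with a mean under 10 TPM, 1419 were higher and 198 lower, or 27.3 and 3.81%. Of the 445 midgut-enriched genes, 95 were higher and 183 lower (21.3 and 41.1%), with a median rescaled difference of -1.26. Of the other 9611 genes, 2628 were higher and 597 lower (27.3 and 6.21%), with a median of 0.08. The choice of the class by midgut level enters these counts.

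Both sexes showed the stage difference. Against females alone 2448 genes were higher in L4 and 630 lower on both scales, and against males alone 2206 and 762. Between females and males, 12 genes were higher in females and 10 in males. Male replicate 2 was the adult library nearest to L4 in the shares of the 10 most abundant, the broadly expressed and the gut-restricted genes and in the number of genes above 1 TPM. Without it, 2483 of the 2723 genes and 694 of the 780 were called the same way. Over all 9 libraries left out in turn, 2190 to 2483 and 657 to 709 were.

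The gene with the largest log2 difference towards L4 was LdNA_25084, at 3827924 to 3833184 of chromosome 13 (minus strand), with 5 exons and 987 bp of exon. It is gut-restricted by the rule above, which pools stages, and no source used here gives its role. L4 fat body held 0 to 3.81 TPM of it (median 3.02), and L4 hindgut 0.677 to 1235 TPM (median 0.703). Its TPM was 31889, 44493 and 29900 in the L4 libraries, 0.0739, 0.198 and 0.276 in females and 3.75, 0.555 and 0.555 in males. L4 and adult values thus stood apart by several orders of magnitude, and females rested on 1 to 4 read pairs each. The difference was 14.38 ± 0.345 (SE) on the log2(TPM + 1) scale, and 13.65 after rescaling (limma, Benjamini-Hochberg adjusted p = 2.9e-08 and 1.0e-07).

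The largest difference of mean TPM towards L4, next to that gene, was in LdNA_28787. It lies at 41735518 to 41737311 of chromosome 14 (minus strand), with 2 exons and 270 bp of exon. Its TPM was 44546, 19533 and 39321 in L4, 53.2, 46.1 and 34.6 in females and 2751, 198 and 296 in males. All L4 libraries lay above all adults, and male replicate 2 was far above the other adults. The log2 difference was 7.69 ± 0.730 (SE) on TPM and 6.73 after rescaling (limma, adjusted p = 3.1e-05 and 1.0e-04).

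The largest differences towards the adult were in 2 neighbouring genes of chromosome 5. LdNA_10678, from 28722878 to 28725690 on the minus strand with 3 exons and 470 bp of exon, had 31924, 38009 and 39921 TPM in females and 33617, 42124 and 36062 TPM in males. It had 0 read pairs in each L4 library. A floor of 3 read pairs corresponds there to 0.507 to 0.560 TPM, so the adult mean of 36943 TPM was at least 65986-fold higher. The gene was lower in L4 on both scales (limma, adjusted p = 5.2e-11 on TPM and 3.2e-10 after rescaling).

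LdNA_10677, from 28715410 to 28717971 on the minus strand with 3 exons and 378 bp of exon, was the most abundant gene of adult midgut. Its TPM was 45007, 49574 and 53135 in females and 44597, 51734 and 47280 in males. The L4 libraries held 1, 3 and 3 read pairs, or 0.232, 0.696 and 0.631 TPM. The ratio of the means was 93473, with a 95% exact Poisson interval of 45367 to 232491 for the L4 read pairs, which covers counting error only. The limma difference was -14.97 ± 0.171 (SE) on the log2(TPM + 1) scale and -15.46 after rescaling (adjusted p = 7.1e-11 and 3.2e-10). The 2 genes are neighbours of equal exon number, and reads could have been split between them if they are near-identical copies, which was not tested. In L4 hindgut replicate 1, LdNA_10677 held 5170 read pairs and LdNA_10678 held 3. Together the 2 genes held at most 3 read pairs in any L4 midgut library.

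**Figure D3:**
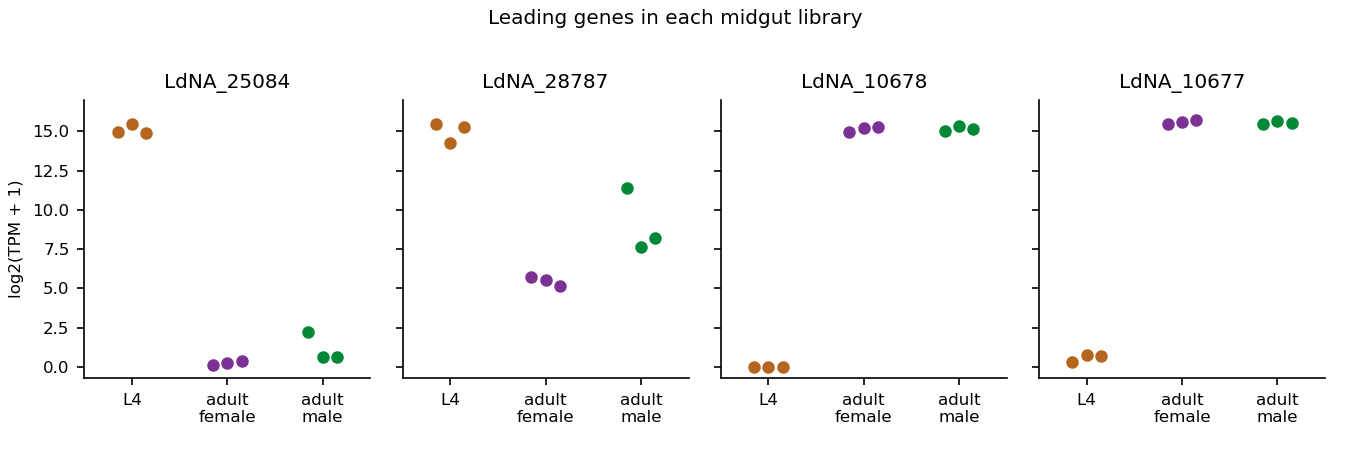
Level of the 4 leading genes in each midgut library (y axis, log2(TPM + 1)), in L4, adult females and adult males. Each point is 1 library. Stages do not overlap in any panel, and male replicate 2 is the highest adult for LdNA_25084 (3.75 TPM) and LdNA_28787 (2751 TPM).

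Some genes were on in a single stage. With a cut of above 10 TPM in every library of one stage and under 1 TPM in every library of the other, 14 genes were on in L4 only and 21 in adults only, all of them also called on both scales. The 21 adult genes took 9.05 to 11.0% of TPM in adults and at most 0.000793% in L4. Most of that adult share came from LdNA_10677 and LdNA_10678, with adult means of 48555 and 36943 TPM. The median of the 21 genes was 29.9 to 63.8 TPM in the adult libraries. The 14 L4 genes took 1.32, 0.443 and 0.489% in L4 and at most 0.000264% in adults. The low shares follow from the cut and are no finding. Of the 21 adult genes 6 were gut-restricted, and of the 14 L4 genes 4, beside 310 of the 10056 genes tested. The class rests mostly on adult libraries of other tissues, so that these counts do not compare the stages.

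These genes were followed in whole younger larvae, in libraries that the midgut comparison does not use. Of the 21 adult-only genes, 17 were above 1 TPM in every library of whole L1 larvae, 17 in L2 and 11 in L3. As 89.6, 88.9 and 85.2% of all tested genes were above 1 TPM in every such library, detection in whole larvae was no more frequent among these genes than in general. The median of the gene medians was 14.1, 10.9 and 2.82 TPM. Of the 14 L4-only genes, 4, 4 and 7 were above 1 TPM in every L1, L2 and L3 library, with medians of 0.856, 0.415 and 17.2 TPM. The whole-body libraries do not identify the tissue.

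Part of the genes higher in L4 midgut also rose in whole larvae between L1 and L3. Each whole-larva library is a pool of 3 larvae, with 3 libraries per instar, and the comparison was added after the data were seen. After rescaling of these 9 libraries, limma called 21.0% of 11409 genes higher in L3 than in L1 and 23.3% lower. Of the 2618 L4-higher midgut genes tested there, 1156 rose (44.2%) and 158 fell (6.04%). Of the 744 L4-lower genes, 90 rose (12.1%) and 237 fell (31.9%). The medians were 0.50 and -0.55 on the log2 scale, against -0.02 for all genes.

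Among the genes that differed in midgut by at least 2 on the log2 scale, 210 of 344 L4-higher genes rose (61.0%), and 123 of 445 L4-lower genes fell (27.6%), the latter near the 23.3% of all genes. Without L3 replicate 3 more of these L4-lower genes rose (24.3%) than fell (22.5%, beside 22.3% of all genes). Without L1 replicate 1, 2 or 5 or L3 replicate 4, 15.5 to 18.0% fell, beside 17.9 to 18.6% of all genes. Without L3 replicate 5, by contrast, 50.6% fell, beside 29.4% of all genes. On TPM as deposited with all libraries, 43.6% of these L4-lower genes fell, beside 34.8%. Whether the larger decreases in midgut had an excess of falling genes thus depended on the scale and on the library left out. More of the L4-higher genes rose between L2 and L3 than between L1 and L2. From L1 to L2, 5.69% of the L4-higher genes rose, beside 5.08% of all genes. From L2 to L3, 43.2% rose, beside 20.8%. On TPM as deposited the shares from L1 to L3 were 18.2% rising for L4-higher genes and 52.6% falling for L4-lower genes, beside 9.75 and 34.8% of all genes.

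The shares depended on single libraries. Without L3 replicate 5, 59.7% of L4-higher genes rose and 54.6% of L4-lower genes fell, beside 27.7 and 29.4% of all genes. Without L3 replicate 3, 37.9% of L4-higher genes rose, beside 20.2%, and L4-lower genes held 27.2% falling and 19.7% rising, beside 22.3 and 20.2%, with a median of -0.22. Without L1 replicate 5, 33.9% rose and 20.9% fell, beside 15.9 and 18.0%. LdNA_25084 was at 4944, 951 and 0.0782 TPM in the L3 libraries, the last in replicate 5, and at most 0.275 TPM in L1 and L2. Its L3 minus L1 difference was 7.34 ± 2.63 (SE; limma, adjusted p = 0.052). LdNA_28787 was at 806, 736 and 28.3 TPM in L3 and at most 5.31 TPM before, a difference of 7.0 ± 1.10 (SE; limma, adjusted p = 0.0015). Neither adult-high gene passed, with -1.53 ± 0.632 (SE) for LdNA_10678 and 0.16 ± 1.14 (SE) for LdNA_10677 (limma, adjusted p = 0.082 and 0.92).

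**Figure D4:**
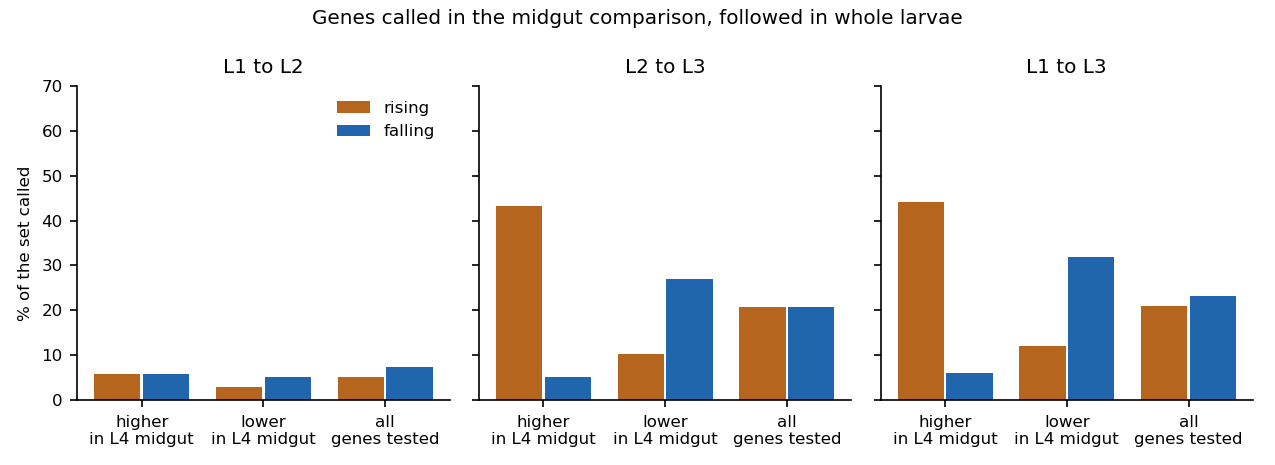
Share of genes called as rising or falling between instars in whole larvae (y axis, percent, starting at 0; limma after rescaling), for genes higher or lower in L4 midgut and for all genes tested. L4-higher genes rise in 43.2% from L2 to L3 and in 5.69% from L1 to L2.

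Genes of large difference lay together in places. Runs of at least 4 neighbouring tested genes, each called on both scales in the same direction with a rescaled difference of at least 2, numbered 10 for genes lower in L4 and 1 for genes higher. The 10 runs held 50 of the 459 genes lower by that much, and the 1 run 4 of 354. Within 9 of the 10 runs the summed TPM of the L4 libraries lay below that of every adult. The choice of each gene by its difference in these same libraries favours that order, so it is no separate result. Among all single genes tested, 5.93% had every L4 library below every adult on both scales. Neighbours of like structure may be near-identical copies, for which reads can be assigned to the wrong copy, whereas the sum over a run is less exposed to this. The library preparation kept no strand, so that reads of overlapping genes on opposite strands cannot be separated.

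The run higher in L4 lies on chromosome 4 from 12518763 to 12779799 and holds 4 genes of 1 to 7 exons. Its summed TPM was 8482, 7694 and 5253 in L4, and 3.51 to 8.17 in adults. The rescaled differences of its genes were between 3.07 and 10.35. The same genes summed to 4196, 13281 and 13895 TPM in the lowest, median and highest L4 hindgut library, against 32.3 to 173 in adult hindgut. In L4 fat body the sum was 391 to 2997 TPM, and 2.80 to 38.3 in adult fat body. In whole larvae it was 10.9 to 17.8 TPM in L1 and L2 and 75.2 to 4843 in L3. The run was thus high in L4 samples of all 3 tissues and low in adult ones.

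The longest run lower in L4 lies on chromosome 1 from 6470352 to 6621945. Of its 8 genes 4 are gut-restricted, beside 310 of the 10056 genes tested. Its summed TPM was 8724, 7831 and 8581 in females and 5245, 8687 and 8290 in males. The L4 libraries held 995, 6494 and 841 TPM, so that L4 replicate 4 overlapped with the adults while the others were well below. The rescaled differences of its genes were between -4.73 and -2.14. Whole L1 larvae held 3925 to 4738 TPM of these genes, and L3 larvae 1255 to 4837.

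A run of 4 genes on chromosome 5, from 11820366 to 11926539, each with 4 exons, summed to 89700, 98995 and 93467 TPM in females and to 60416, 62785 and 66070 in males. In L4 it was 1568, 26094 and 351 TPM, again highest in replicate 4. Whole larvae held 18030 to 18684 TPM in L1, 14218 to 16983 in L2 and 13436 to 24770 in L3, more than L4 midgut replicates 3 and 5 held. The run was near absent from L4 hindgut, at 0.0929 to 102 TPM.

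The run that holds LdNA_10677 and LdNA_10678 spans 28637482 to 28768491 of chromosome 5 and has 5 genes of 3 exons each, from 378 to 504 bp of exon. It summed to 88977 to 109021 TPM in adults and 3627 to 3889 in L4, where most came from 1 gene with a mean of 3417 TPM. On chromosome 18, from 21092348 to 21161116, a run of 5 genes of 8 exons each summed to 12534 to 15196 TPM in adults and 113, 160 and 622 TPM in L4. Whole L1 larvae held 3640 to 4031 TPM of it. A run of 5 genes on chromosome 16, from 23039133 to 23076441, was at 15618 to 33760 TPM in adults and at 676, 3597 and 5068 in L4. In 7 of the 10 runs, every L1 and L2 library lay above the median of the L4 midgut libraries. The choice of the runs by low level in these L4 midgut libraries favours that order. Whole-body and midgut TPM are unlike measures, L3 libraries were not counted, and the share over all genes was not computed.

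**Figure D5:**
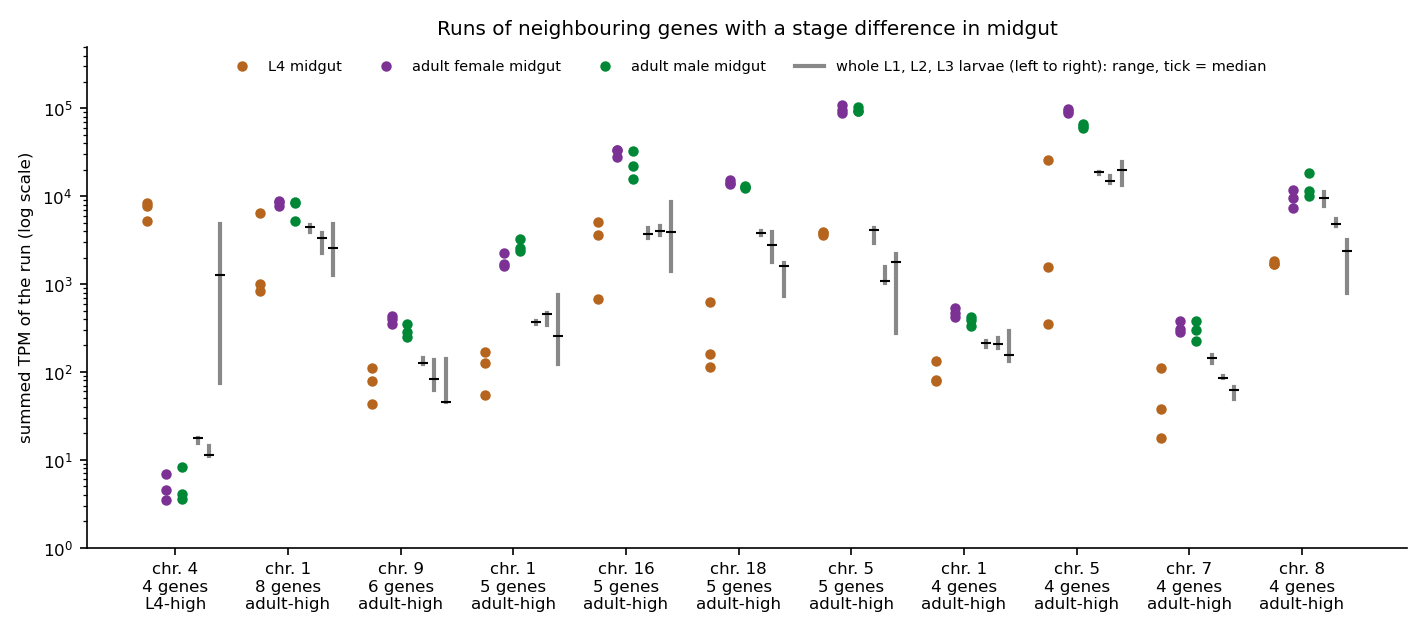
Summed TPM (y axis, log scale) of the 11 runs of neighbouring genes. Points are single midgut libraries of L4, females and males, and grey bars the range over 3 whole-larva libraries of L1, L2 and L3 with the median as a tick. In the runs of adult-high genes L4 points lie below the adult points, except 1 library in the run of 8 genes. The choice of the runs by these midgut libraries favours that order.

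The L4 libraries were not alike in these genes. Of the 780 genes lower in L4, 33 were at least 4-fold higher in L4 replicate 4 than in both other L4 libraries. The numbers were 3 and 6 for replicates 3 and 5. Among all 10056 genes tested they were 78 for replicate 4, and 66 and 39 for replicates 3 and 5. Without replicate 4, the count of genes lower on both scales that were called again was 657. The stage of these larvae within L4 is not given beyond the day of dissection, and its part in this spread was not tested.

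Chromosomes held L4-higher genes in unequal shares. On chromosome 6, 189 of 536 genes were higher in L4 and 20 lower (35.3 and 3.73%). On chromosome 18, 55 of 268 were higher and 45 lower (20.5 and 16.8%). On the other 16 chromosomes 23.8 to 31.2% were higher and 4.95 to 11.0% lower. The median rescaled difference was 0.24 on chromosome 6 and -0.13 on chromosome 18, and these are counts with no test between chromosomes.

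The stage difference in midgut was next set against that in hindgut, the gut part behind it, and in fat body, the insect counterpart of liver and adipose tissue. In a joint limma fit after rescaling within each tissue, 1339 of 11707 genes were more L4-high in midgut than in hindgut (11.4%), and 1334 more adult-high (11.4%). Against fat body the numbers were 1039 and 1179 of 11166 (9.31 and 10.6%). White and yellow fat body of L4 larvae formed a single group there, and without yellow replicate 2 the counts were 1302 and 1330. On TPM as deposited the split moved to 5191 and 511 against hindgut, and to 3878 and 611 against fat body.

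Hindgut and fat body, in libraries of their own, shared part of the midgut pattern. Of the 2723 genes higher in L4 midgut, 484 were called higher in L4 hindgut (17.8%, beside 8.35% of all genes) and 100 lower. Of the 780 genes lower in L4 midgut, 143 were lower in L4 hindgut (18.3%, beside 7.97%) and 23 higher. In fat body 659 were higher (24.2%, beside 13.3%) and 112 lower, and of the 780 genes 265 were lower (34.0%, beside 13.1%) and 42 higher. The medians of the L4-higher genes were 0.95 in midgut, 0.22 in hindgut and 0.28 in fat body. No source used here says whether tissues came from the same insects.

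The leading genes were also followed in hindgut. They were chosen by their difference in midgut, which enters the values below. The L4 minus adult difference of LdNA_25084 was larger in midgut than in hindgut by 9.69 ± 2.21 (SE; limma interaction, adjusted p = 0.0074). Its L4 hindgut values were 0.677, 1235 and 0.703 TPM, so that 1 library held nearly all. For LdNA_10678 the interaction was -12.34 ± 0.756 (SE; limma, adjusted p = 1.9e-07) and for LdNA_10677 -16.63 ± 1.60 (SE; limma, adjusted p = 1.4e-05). LdNA_28787 did not pass (4.84 ± 2.06, SE; limma, adjusted p = 0.11).

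Genes that mark other tissues were measured in the midgut libraries, since neighbouring tissue can come along in dissection. The lists were built from the other tissues only, and their counts stand beside 27.1% higher and 7.76% lower among all genes tested. The 162 genes of malpighian tubules, the excretory tubules that join the gut behind the midgut, summed to 18045, 37839 and 17318 TPM in L4 and 4184 to 9431 in adults, beside 119152 to 141862 in the tubules. Of the 105 tested, 20 were higher in L4 and 18 lower (19.0 and 17.1%). The 75 hindgut genes summed to 1076, 2326 and 5471 TPM in L4, 322 to 358 in females and 1323 to 3872 in males, and 9 of 58 tested were higher and 2 lower (15.5 and 3.45%). The 21 fat body genes summed to 86.8 to 149 TPM in L4 and 1.79 to 27.3 in adults, with 8 at 0 in all L4 libraries, and 1 of 3 tested was higher.

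The 143 genes of the hemolymph list summed to 165542 to 273183 TPM in L4 midgut, 309784 to 462487 in adult midgut and 22823 to 42028 in hemolymph itself, so that the list is not specific to hemolymph. Of 92 tested, 17 were higher in L4 and 42 lower (18.5 and 45.7%). The part of other tissues in the stage differences was not tested. The 4 lists of aedeagus, genital ducts, ovaries and testes summed to at most 3393 TPM in any midgut library, and of their 126 tested genes 39 were higher and 23 lower (31.0 and 18.3%).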

How the data were processed

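RNA was extracted from dissected midguts, enriched for poly(A) RNA and sequenced as read pairs from a non-directional preparation. Per the labels and the study's methods, the authors trimmed the reads with Trimmomatic, checked them with FastQC 0.11.9, used STAR for alignment and featureCounts (Subread 2.0.5) for read pairs per gene, and deposited TPM for 15578 genes above 1 TPM in at least 2 libraries. All library columns of the table were matched to a sample (0 unmatched). TPM times gene length gave whole read pairs, within 0.01, for 100% of values above 0.

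Stages were compared with limma 3.58.1 (R 4.3.3; empirical Bayes, mean-variance trend) on log2(TPM + 1), with group means for L4, females and males. Fold changes of low genes are understated on this scale. The fit was repeated after median-of-ratios rescaling. Library measures were tested by exact permutation. The tissue comparisons left out 1 female hindgut and 1 yellow fat body library, those farthest from their tissue and stage. The study removed a library of each kind, as outliers for which it held contamination at dissection and collection to be likely. Named genes are, in each direction, the gene of the largest log2 difference and that of the largest difference of mean TPM, among genes without overlap on either scale. Marker lists hold genes with a tissue specificity index tau above 0.85 over the 8 other tissues and a median above 10 TPM in the tissue they mark. The members, lists and tests were chosen with earlier results of these data known. On data simulated for the midgut comparison (9149 genes), the call on both scales recovered 22% of genes changed by 1 and 89% of genes changed by 2 on the log2 scale, with 5 false calls. The simulation changed 100 genes by 1 and 100 by 2, lowered a few abundant genes and left all others unchanged. Its median difference on TPM was 0.39, beside 0.82 in the data, where far more genes were called. The 5 false calls thus do not measure the errors of the real comparison. Alternatives covered scaling, pseudocounts, filters, the spread model, a replicate block and the omission of each library. Where nothing says that insects were reared apart, p-values measure only the spread between these insects. Python 3.11.15, pandas 2.3.3 and matplotlib 3.10.9 were used.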

Additional observations from a re-analysis of the deposited data

Results flagged for a closer look

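Among 19 measures of the 6 adult libraries, 4 had a library apart from the rest, each time male replicate 2. Chance gives about 1 in 20 for a single measure, but values of the same library are not independent, so that 4 of 19 cannot be read against that rate. LdNA_25084 was at 3.75 TPM in male replicate 2, beside at most 0.555 in the others. LdNA_28787 was at 2751 TPM in the same library, beside at most 296. The gut-restricted share was 1.20% there, beside at most 0.688%. The run of 8 genes on chromosome 1 at 6470352 summed to 5245 TPM there, beside at least 7831. Male replicate 2 also had the highest hindgut marker sum of the adults, 3872 TPM, and its part in these values was not tested.

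The stage difference of 4 named genes was larger in midgut than in another tissue, by the limma interaction in 7 of 8 comparisons. The genes were chosen by their difference in these midgut libraries, which the interaction uses again, so that its values are a description and the adjusted p are too small. Against hindgut the excess was 9.69 for LdNA_25084 (adjusted p = 0.0074), -12.34 for LdNA_10678 (1.9e-07) and -16.63 for LdNA_10677 (1.4e-05). Against fat body it was 12.31 for LdNA_25084 (8.9e-09), 4.76 for LdNA_28787 (0.010), -15.04 for LdNA_10678 (6.4e-11) and -14.92 for LdNA_10677 (1.8e-10).

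The adult-high genes at or near 0 in L4 midgut were measured in L4 hemolymph. LdNA_10678 was at 318, 299 and 0 TPM and LdNA_10677 at 377, 458 and 0 TPM in hemolymph replicates 3, 4 and 5, against 0 and at most 0.696 TPM in L4 midgut. In the female hindgut library that was left out, replicate 5, they were at 4725 and 8095 TPM, against 5.15 to 30.2 and 13.6 to 62.4 TPM in the other female hindgut libraries.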

How the results depend on the processing

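Of the 298 alternative values, 280 kept their direction and their side of the threshold, or stayed within 1.5 times the count reported, among them all 76 for the 4 named genes. Rescaling moved the TPM counts to 2723 higher and 2531 lower in L4. On TPM as deposited, 5191 genes were more L4-high and 511 more adult-high in midgut than in hindgut, and 3878 and 611 than in fat body. The midgut-enriched class reversed the difference in gut-restricted share to -20.4 percentage points, by holding other genes. In whole larvae, TPM as deposited gave 477 rising L4-higher genes and 391 falling L4-lower genes, in place of 1156 and 237. Apart from scaling, the cause of these moves was not tested.

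Leaving out 1 library at a time gave a difference in the share of the 10 most abundant genes between -8.84 and -5.90 percentage points, with the call lost in 7 of 9 cases. Falling L4-lower genes in whole larvae numbered 155 to 405 and rising L4-higher genes 842 to 1562. Calls on both scales numbered 2299 to 2582 and 689 to 778. Without female, male or L4 libraries in turn, the other counts stayed within 1.5 times.

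Sample numbers did not pair the libraries: same-numbered libraries deviated together with correlations of -0.06 to 0.13. With the replicate block, 5837 genes were higher and 696 lower in L4 on TPM, and 2136 and 695 on both scales, of which 2740 were among the 3503 called without it. Against hindgut the block gave 957 and 1004 genes, and against fat body 1066 and 1089. It changed the call of none of the 4 named genes.

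With 3 L4 insects, 84 splits limit an exact p to 0.0119. Depth limits genes under about 0.07 TPM, where 1 read pair decides.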

Other observations

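The level of LdNA_10677 outside the midgut was uneven within L4. It was at 1016 TPM in L4 hindgut replicate 1 and at 26.7 and 6.43 TPM in replicates 4 and 5, whereas LdNA_10678, its neighbour, was at 0.474 TPM or less in all L4 hindgut libraries. In adult malpighian tubules LdNA_10677 was at 71.3 to 355 TPM and LdNA_10678 at 0 to 3.49 TPM. In whole L1 larvae they were at 6.55 to 84.1 and 3.88 to 19.5 TPM.

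L4 hindgut replicate 4 was the only L4 hindgut library that held much LdNA_25084 (1235 TPM) and LdNA_28787 (558 TPM), at levels far below those of L4 midgut.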
